A study of Mus musculus with 24 samples.

Results

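Erg against control at day 3 sets 3 libraries of cells named for Erg beside 3 libraries of control cells, chosen by their labels, out of 24 libraries of a mouse series. Per the labels, all 6 came from heart, were cultured in the endothelial growth medium EGM2 and were taken at day 3. The labels call the Erg cells iEC and the control cells fibroblast, and give no mouse strain, age, genotype or way in which Erg was introduced. The other libraries carry Sox17 or a condition named SEG, or belong to day 7, and the study asked how far the conditions bring about endothelial gene expression. Messenger RNA was sequenced, and 14804 of the 35727 genes counted had enough counts to be tested. The labels do not tie the libraries of a group to separate animals or cultures, and the spread that p-values are measured against may therefore be technical.

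ERG is a transcription factor of the ETS family, whose members share a DNA-binding domain that recognises a GGAA core. Endothelial cells express it throughout life, where it keeps junction and lineage genes active, restrains inflammatory genes and takes part in Notch and Wnt signalling, and it also acts in blood stem cells and megakaryocytes. Fibroblasts of the heart make collagens, proteoglycans and other matrix proteins, and ERG is not one of their usual factors.

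Total counts ran from 19152711 to 37355910 in Erg libraries and from 18794422 to 21332347 in control libraries. Levels are given as CPM, counts scaled to a common library size after TMM normalisation, and are compared between groups within a gene. The log2 CPM of tested genes correlated at 0.9900 to 0.9914 within Erg libraries, at 0.9896 to 0.9902 within control libraries and at 0.9279 to 0.9324 between the groups. Genes of ribosomal proteins took 3.76% to 3.94% of counts in Erg libraries and 3.76% to 3.85% in control libraries. Mitochondrial genes took 1.65% to 2.01% in Erg libraries and 1.39% to 1.49% in control libraries.

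The labelled cell types were checked against defining markers. Of the fibroblast markers, Pdgfra, Col1a1, Thy1 and Tcf21 were lower in Erg, Dcn was higher and Ddr2 was not called. Ddr2 stood at 484 ± 5.69 CPM in Erg against 353 ± 12.3 CPM in control. It was called higher, by 0.48 on the log2 scale, with the fit restricted to the Erg and control libraries of day 3. The least abundant of these markers in Erg, Tcf21, still averaged 75.0 ± 3.76 CPM there (SD, n = 3). The libraries of cells labelled iEC thus held fibroblast transcripts beside the endothelial ones described here. Whether the same cells carried both cannot be read from bulk RNA. Of the cardiomyocyte markers, Tnnt2 was lower in Erg, Nppa was not called, Myh6 had 4 counts in Erg libraries and 0 in control libraries, and Actc1 had 0 counts in all 6. In bulk RNA, fewer cells of a type and less RNA per cell cannot be told apart.

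Erg itself (ENSMUSG00000040732, a protein-coding gene on the minus strand of chromosome 16, 95359169 to 95586593 in mm10) stood at 7039, 7088 and 7133 CPM in the 3 Erg libraries, against 0, 0.0991 and 0 CPM in the control libraries. Its transcripts made up 0.651% to 0.662% of all counts in Erg libraries, and against the 2 counts in control the ratio was 2.05e+05 (95% counting interval 5.66e+04 to 1.69e+06). Sox17, the other named factor of the series, stood at 0.508, 0.195 and 0.0577 CPM in Erg libraries, 15 counts in all, against 0 counts in control libraries. That is at least 4.88-fold higher (adjusted p = 0.039) against a floor of 3 counts over the 3 control libraries, with 9 of the counts in Erg replicate 1. The call ended without Erg replicate 1 (adjusted p = 0.107), without Erg replicate 2 and without any of the control libraries (0.0554 to 0.0806). Whether Erg reads came from an introduced copy or from the cells' own gene cannot be read from gene counts. The intervals and floors given here take in counting error alone.

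Of the 14804 genes tested, 3344 were higher in Erg, or 22.6%, and 3483 were lower, or 23.5%, by edgeR's quasi-likelihood test at a Benjamini-Hochberg adjusted p under 0.05. All adjusted p-values are from that test unless said otherwise. In a test for changes beyond 1.5-fold, 1682 were higher and 1408 lower. Large rises outnumbered large falls. A log2 change of at least 4 was found for 385 called rises and 13 called falls, and one of at least 2 for 930 rises and 197 falls. The median log2 change over all genes tested was −0.0063, a centre that the TMM scaling places near 0. It is not a baseline for lists of genes near 0 counts in control, which can rise further than they can fall. Of the 6827 genes called, 6752 had no overlap between the 3 Erg and the 3 control libraries, which held for 70.3% of all genes tested. In all, 517 genes had counts in Erg libraries and 0 in control libraries, 7 of them at 10 CPM or more. Another 144 genes had counts in control libraries and 0 in Erg libraries, 0 of them at 10 CPM or more. Nearly all calls were in protein-coding genes, with 3285 higher and 3430 lower of 14310. Of 6 long intergenic RNAs tested 2 rose, among them Tmem250-ps, to 57.9 ± 4.38 CPM in Erg against 39.0 ± 1.31 CPM in control (SD, n = 3).

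**Figure D1:**
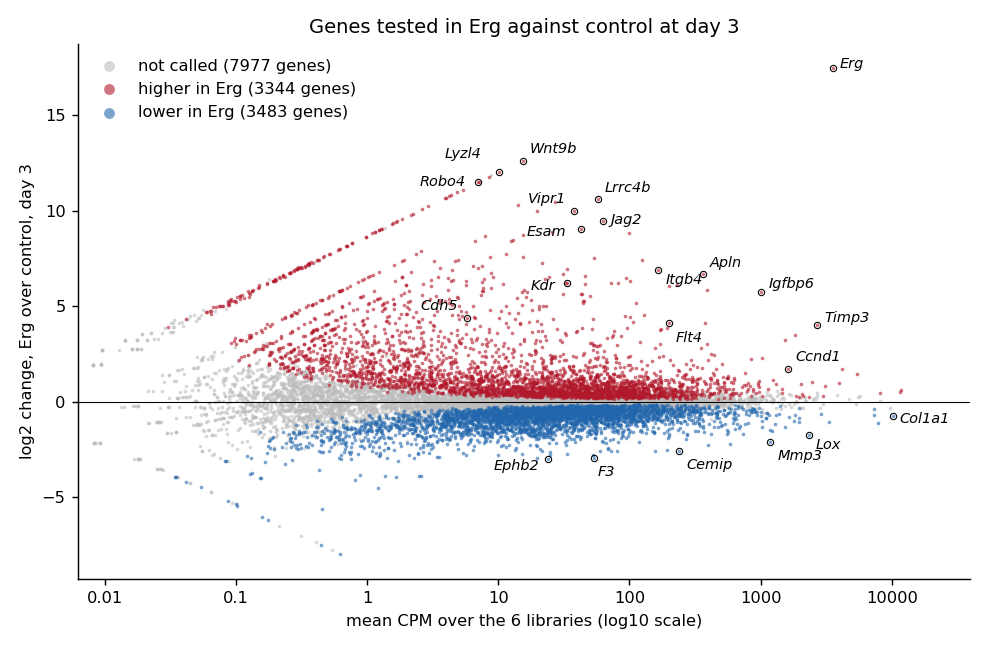
Each point is 1 of the genes tested, with its mean level over the 6 libraries in CPM on a log10 axis and its fitted log2 change, Erg over control, coloured by the call. Genes with 0 counts or a few counts in a group form the slanted lines, where the fitted value depends on a prior count. Called rises of at least 4 on the log2 scale numbered 385 and called falls of that size 13.

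The 20 largest rises, taken from called genes whose mean in Erg was 10 CPM or more and whose libraries did not overlap with control, held genes of endothelium beside genes known from other tissues. Besides Erg itself they included Wnt9b, a Wnt ligand known from kidney and face development, with 32.6, 32.4 and 27.1 CPM in Erg libraries against 0 counts in control libraries, at least 590.1-fold higher. Lyzl4, a lysozyme-like protein of sperm, had 21.3, 19.3 and 20.2 CPM in Erg libraries against 0 counts in control, at least 389-fold higher. Reln, the secreted glycoprotein reelin of neurons and lymphatic endothelium, had 16.9, 17.6 and 16.2 CPM in Erg libraries against 0 counts in control, at least 325-fold higher. Add2, an adducin of the red cell membrane skeleton, Robo4, a guidance receptor of endothelium, and Calcb, a calcitonin gene-related peptide, were at least 275-fold, 269-fold and 207-fold higher. None of these 6 genes had a count in any control library.

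Among the others of the 20, Lrrc4b, a synaptic adhesion protein, stood at 119, 118 and 108 CPM in Erg libraries against 0, 0.0991 and 0.102 CPM in control libraries, on 4 control counts (log2 change 10.60, SE 0.44). Ano1, a calcium-activated chloride channel, stood at 193, 202 and 197 CPM in Erg libraries against 0.446, 0.347 and 0.512 CPM in control libraries (log2 change 8.81). Kcna5, a voltage-gated potassium channel, reached 24.99 ± 1.57 CPM in Erg against 0.0698 ± 0.0777 CPM in control, and Doc2b, a calcium sensor of vesicle release, 25.8 ± 0.641 CPM in Erg against 0.0713 ± 0.0619 CPM in control (SD, n = 3). The levels in Erg lay within a narrow band for each of these. Control levels near 0 go with the choice of the largest rises without overlap. Sez6l2, a neuronal membrane protein, and Ache, acetylcholinesterase, averaged 54.5 ± 5.27 and 39.7 ± 1.49 CPM in Erg. Over their 2 and 2 control counts the ratios were 1599.6 (95% counting interval 443 to 1.32e+04) and 1153 (95% counting interval 319 to 9521). Col13a1, a transmembrane collagen, rose by 8.87 on the log2 scale.

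The proximal promoters of the largest rises and falls were read for the ETS core. RefSeq's promoter windows of build GRCm38.p6, 250 bases before to 50 after a gene's start, matched 15 of the 20 rises and 14 of the 20 falls. The 15 windows of rises include that of Erg itself, whose reads may come from an introduced copy. The windows below are those of Kcna5, which held the most copies of GGAA among the rises, of Robo4, the endothelial receptor, of Lyzl4 and Vipr1, which start head to head, and of Pdlim3, the fall with the most copies. Vipr1 was added after its values were seen. Each is written 5′ to 3′ on the gene's own strand, and capitals mark GGAA or its reverse complement TTCC. Kcna5 lies on the minus strand at chr6:126535506-126535805 and Lyzl4 on the minus strand at chr9:121642072-121642371. Vipr1 lies on the plus strand at chr9:121642466-121642765, Robo4 on the plus strand at chr9:37401722-37402021 and Pdlim3 on the plus strand at chr8:45885237-45885536.
Kcna5: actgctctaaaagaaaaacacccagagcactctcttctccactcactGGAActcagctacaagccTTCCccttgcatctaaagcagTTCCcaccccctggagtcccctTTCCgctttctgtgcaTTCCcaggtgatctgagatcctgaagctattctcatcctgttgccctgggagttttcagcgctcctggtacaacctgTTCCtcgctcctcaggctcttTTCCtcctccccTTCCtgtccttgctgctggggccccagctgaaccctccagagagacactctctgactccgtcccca
Robo4: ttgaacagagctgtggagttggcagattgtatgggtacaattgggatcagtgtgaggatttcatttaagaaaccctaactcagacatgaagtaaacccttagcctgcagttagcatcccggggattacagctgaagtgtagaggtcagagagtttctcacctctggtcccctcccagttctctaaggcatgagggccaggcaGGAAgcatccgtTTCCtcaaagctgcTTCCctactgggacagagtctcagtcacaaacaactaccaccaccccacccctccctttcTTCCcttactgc
Lyzl4: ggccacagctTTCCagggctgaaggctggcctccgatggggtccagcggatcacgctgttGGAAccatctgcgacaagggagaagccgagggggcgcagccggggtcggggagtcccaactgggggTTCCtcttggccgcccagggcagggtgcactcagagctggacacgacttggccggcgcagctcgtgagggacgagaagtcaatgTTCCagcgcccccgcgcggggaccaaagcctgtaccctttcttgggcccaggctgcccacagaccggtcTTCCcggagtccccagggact
Vipr1: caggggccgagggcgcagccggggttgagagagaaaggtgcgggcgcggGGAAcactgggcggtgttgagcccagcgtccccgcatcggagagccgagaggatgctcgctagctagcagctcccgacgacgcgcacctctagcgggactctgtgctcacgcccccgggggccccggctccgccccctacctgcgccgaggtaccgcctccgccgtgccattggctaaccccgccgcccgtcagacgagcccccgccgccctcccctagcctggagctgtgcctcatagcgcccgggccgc
Pdlim3: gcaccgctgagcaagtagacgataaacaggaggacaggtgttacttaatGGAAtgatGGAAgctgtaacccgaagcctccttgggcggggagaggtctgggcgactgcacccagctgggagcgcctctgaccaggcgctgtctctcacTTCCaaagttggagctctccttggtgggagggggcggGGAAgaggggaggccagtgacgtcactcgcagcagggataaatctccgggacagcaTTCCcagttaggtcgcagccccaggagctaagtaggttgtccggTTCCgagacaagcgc

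These windows held 8 copies of the core in Kcna5, 4 in Robo4, 5 in Lyzl4, 1 in Vipr1 and 6 in Pdlim3. The core was found in 11 of the 15 windows of the largest rises and in 12 of the 14 of the largest falls, while 95.4% of the windows of all 11166 tested genes matched held it. The longer ETS motifs CGGAAGT and AGGAAGT, sought on both strands, were in 0 of the windows of the largest rises and falls. CGGAAGT was in 6.7% of windows of called rises, 16.4% of windows of called falls and 12.9% of windows of genes not called. Over all 27025 windows the core was in 95.9%, CGGAAGT in 6.59% and AGGAAGT in 9.57%, and both longer motifs hold the core. AGGAAGT was in 7.54% of windows of rises, 10% of those of falls and 8.77% of those not called. Among the 656 matched rises of at least 2 on the log2 scale, 2.44% of windows held CGGAAGT and 8.84% AGGAAGT. Windows of rises had a mean GC content of 61.3%, those of falls 60.3% and those of genes not called 60.2%. A match is a run of letters, and no binding was measured.

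Lyzl4 and Vipr1 lie head to head on chromosome 9, and both rose from 0 or nearly 0 counts. Vipr1, a receptor of vasoactive intestinal peptide that relaxes vessels, stood at 80.4, 73.0 and 75.0 CPM in Erg libraries against 0, 0.0495 and 0.154 CPM in control libraries (log2 change 10.002, SE 0.43, adjusted p = 3.78e-13). Among 630 pairs of tested genes whose starts face away from each other within 1000 bases, both members rose in 30, or 4.76%, both fell in 46, or 7.3%, and they moved in opposite directions in 28, or 4.44%. In 2 of these pairs both members rose by at least 2 on the log2 scale, the other one being Ppp1r3d and Fam217b, named after their values were seen.

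Another stretch of chromosome 9 held Robo4 (37401897 to 37415115, plus strand) and Esam (37528078 to 37538319, plus strand), an adhesion molecule of endothelial junctions. Esam stood at 87.8, 84.7 and 81.7 CPM in Erg libraries against 0.112, 0.248 and 0.102 CPM in control libraries (log2 change 9.04, SE 0.31). Their neighbours within 100 kb were looked up after these values were seen. Between Robo4 and Esam, Robo3 and Msantd2 rose by 1.12 and 1.31 on the log2 scale. Beyond Esam, Vsig2 had 37 counts in Erg libraries against 0 in control (at least 9.74-fold higher), Nrgn rose by 2.50 and Spa17 was not called. Siae was called at 0.34 (adjusted p = 0.0293), but not when any of the 6 libraries was left out (0.0501 to 0.0786). Ccdc15, on the other side of Robo4, fell by 1.49. Robo3 was no longer called without Erg replicate 2 or 3 or control replicate 1 or 2 (adjusted p = 0.0647 to 0.142), nor Ccdc15 without Erg replicate 3 or control replicate 2 (0.0561 and 0.0501). Around Vipr1, Sec22c, Ss18l2 and Nktr were not called and Zfp651 rose by 0.40.

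**Figure D2:**
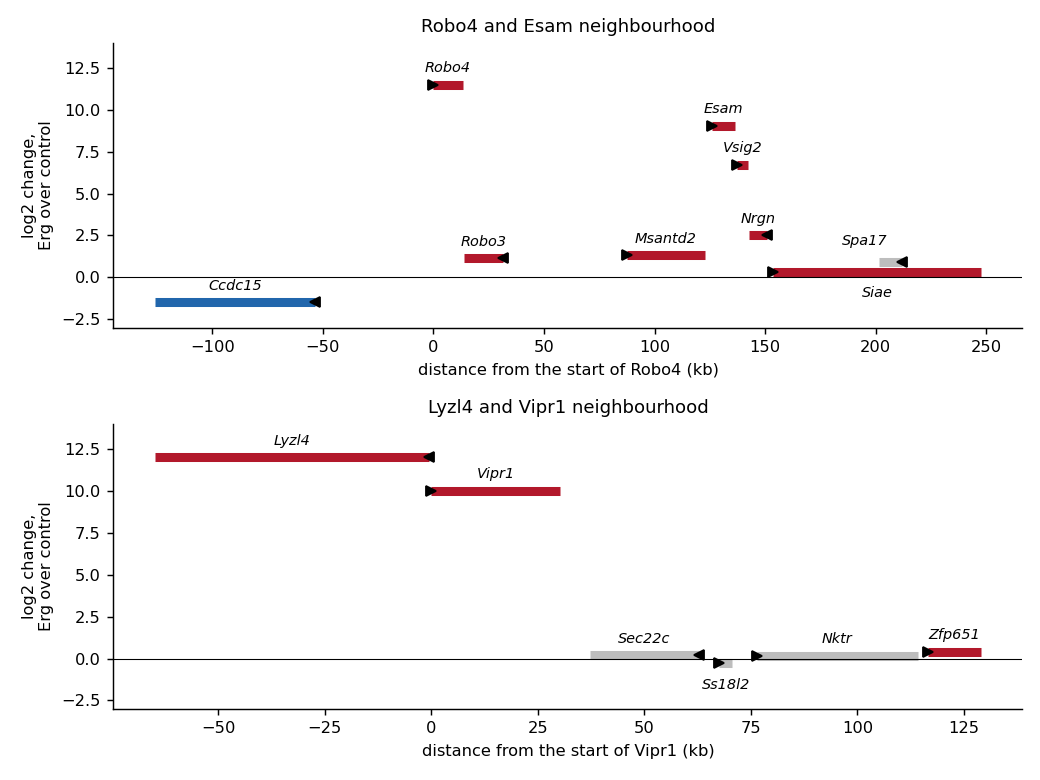
Bars are tested genes placed by distance in kb from the start of Robo4 and from the start of Vipr1, at the height of their fitted log2 change, Erg over control, with an arrowhead at each start in the direction of transcription. The height of a gene with 0 counts in control depends on a prior count. Genes between Robo4 and Esam rose by 1.12 and 1.31, less than either of them.

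The ETS family, to which Erg belongs, came to 3 higher, 4 lower and 12 not called of 19 tested (median log2 change −0.18), with Erg among the higher. Its counts depended on the libraries that share the fit, at 7 higher and 8 lower without replicate 1 of Sox17 and of SEG at day 7, and 6 higher and 9 lower with the fit restricted to the groups compared. Fli1, its closest relative and another endothelial and blood factor, stood at 7.57, 6.98 and 8.34 CPM in Erg libraries against 17.1, 17.9 and 16.6 CPM in control libraries (log2 change −1.17, SE 0.14, adjusted p = 7.22e-07). Ets1, a factor of angiogenesis, fell to 52.6 ± 1.52 CPM in Erg against 118 ± 2.66 CPM in control (SD, n = 3), and Elk3 fell by 0.93 and Etv4 by 1.43. In all 4 the Erg libraries lay below every control library, and most genes called had no overlap between the groups. Ets2 rose by 0.91 and the repressor Erf by 0.26.

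The other transcription factors of endothelium came to 17 higher, 4 lower and 8 not called of 29 tested (median log2 change 0.94). Sox18, which directs lymphatic and vessel development, stood at 29.4, 29.0 and 26.1 CPM in Erg libraries against 0, 0 and 0.0512 CPM in control libraries. Its control level rests on 1 count, for a ratio of 1598 (95% counting interval 286 to 6.31e+04). Hhex, an early factor of blood and endothelium, reached 7.06 ± 0.438 CPM in Erg against 0.193 ± 0.0827 CPM in control (SD, n = 3). Sox11 rose by 5.03, Bcl6b, an endothelial repressor, by 4.09 and Meox1 by 3.24. Meox2, its relative, fell by 1.94, Nr2f1 by 1.26, Prox1, which specifies lymphatic endothelium, by 1.13, and Klf4 by 0.72. Prox1 was no longer called without control replicate 1 (adjusted p = 0.0527).

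The 3 receptors of vascular endothelial growth factor (VEGF) rose together. Kdr, its main signalling receptor, stood at 65.8, 64.6 and 66.1 CPM in Erg libraries against 1.23, 0.842 and 0.563 CPM in control libraries (log2 change 6.23, SE 0.38, adjusted p = 6.64e-11). Flt1, the decoy receptor, stood at 207, 204 and 199 CPM in Erg libraries against 9.71, 12.04 and 12.6 CPM in control libraries (log2 change 4.15, SE 0.26). Flt4, the receptor of lymphatic growth, stood at 372, 384 and 375 CPM in Erg libraries against 21.8, 22.5 and 21.9 CPM in control libraries (log2 change 4.09, SE 0.27). In each of them the lowest Erg library lay more than 10 times above the highest control library. The ligand Vegfd fell, to 30.9 ± 2.95 CPM in Erg against 133 ± 4.19 CPM in control (SD, n = 3), and Vegfc fell by 0.36. Of the co-receptors, Nrp2 rose by 1.01 and Nrp1 was not called, and the ligand Pgf rose by 1.06. Nrp1 was called higher, by 0.35, with the fit restricted to the groups compared (adjusted p = 1.745e-06). The list of VEGF genes came to 5 higher, 2 lower and 3 not called of 10 tested (median log2 change 0.66).

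The Tie receptors moved in different directions. Tie1 rose, to 1.02 ± 0.00776 CPM in Erg against 0.0729 ± 0.0858 CPM in control, and Tek, the receptor of angiopoietins, fell, to 13.7 ± 0.488 CPM in Erg against 18.3 ± 1.17 CPM in control (SD, n = 3, adjusted p = 0.0396). The call of Tek ended when any library but control replicate 3 was left out, at adjusted p-values of 0.0684 to 0.114. Angpt1, its activating ligand, rose by 1.03, while Angptl4, a secreted inhibitor of lipoprotein lipase, fell by 1.23. The list came to 6 higher, 2 lower and 3 not called of 11 tested (median log2 change 0.20), with 1 lower when any library but control replicate 3 was left out. With the fit restricted to the groups compared, 4 of 10 tested were lower.

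Tip cell genes and those of adrenomedullin and apelin signalling came to 8 higher, 5 lower and 5 not called of 18 tested (median log2 change 0.26), with 3 lower without Erg replicate 3 or control replicate 2 or 3. Apln, the peptide apelin, stood at 730.2, 744 and 691 CPM in Erg libraries against 8.03, 7.13 and 5.94 CPM in control libraries (log2 change 6.68, SE 0.20, adjusted p = 1.59e-15). Ramp3 and Ramp2, which shape the adrenomedullin receptor, reached 30.9 ± 0.789 CPM in Erg against 0.0713 ± 0.0619 CPM in control and 48.8 ± 0.865 CPM in Erg against 15.2 ± 1.85 CPM in control (SD, n = 3). Plaur, the urokinase receptor, rose by 2.94 and Igfbp3 fell by 1.07. Without Erg replicate 3, control replicate 2 or control replicate 3 the falls of this list came to 3.

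Junction genes of endothelium came to 11 higher, 4 lower and 6 not called of 21 tested (median log2 change 0.90, or 0.83 taking members at 0 counts at their lower bound). Cdh5, the cadherin of endothelial adherens junctions, stood at 9.83, 12.8 and 10.6 CPM in Erg libraries against 0.391, 0.347 and 0.819 CPM in control libraries (log2 change 4.399, SE 0.36). Pecam1, found at endothelial cell borders, stood at 2.65, 2.59 and 2.48 CPM in Erg libraries against 0.279, 0.0991 and 0.409 CPM in control libraries (log2 change 3.28, SE 0.26). The groups did not overlap in either gene, as held for most genes called. Cldn5, the claudin of endothelial tight junctions, had 4 counts in Erg libraries and 0 in control libraries and was not called. Jam2, a junctional adhesion molecule, fell to 77.0 ± 2.50 CPM in Erg against 176 ± 3.15 CPM in control (SD, n = 3), and Nectin1 fell by 1.09 and Amotl2 by 0.72.

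Surface and adhesion genes of endothelium came to 24 higher, 1 lower and 11 not called of 36 tested (median log2 change 1.25). Lyve1, the hyaluronan receptor of lymphatic endothelium, stood at 144, 134 and 148 CPM in Erg libraries against 1.79, 1.63 and 2.25 CPM in control libraries (log2 change 6.23, SE 0.31). Plvap, which forms the diaphragms of endothelial pores, stood at 40.3, 41.7 and 36.1 CPM in Erg libraries against 1.12, 1.14 and 1.84 CPM in control libraries (log2 change 4.84, SE 0.31). Selp, the leukocyte-binding P-selectin, stood at 38.6, 39.1 and 46.9 CPM in Erg libraries against 2.73, 4.61 and 4.04 CPM in control libraries (log2 change 3.45, SE 0.34). Every Erg library lay above every control library in these 3 genes, and such a lack of overlap held for most genes called. Emcn, an endothelial sialomucin, reached 4.64 ± 0.854 CPM in Erg against 0.242 ± 0.0490 CPM in control. Cavin1, a coat protein of caveolae, was the member called lower, at 411 ± 15.3 CPM in Erg against 673 ± 8.53 CPM in control (SD, n = 3). The list had 2 members lower without Erg replicate 1 or with the fit restricted to the groups compared, and 0 beyond 1.5-fold. Vwf, the von Willebrand factor, stood at 2.26, 1.27 and 2.28 CPM in Erg libraries against 1.51, 0.941 and 0.921 CPM in control libraries, and the groups overlapped (adjusted p = 0.0603). It was called higher without Erg replicate 2 (0.0242) or control replicate 1 (0.0358) and with the fit restricted to the groups compared (0.018).

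**Figure D3:**
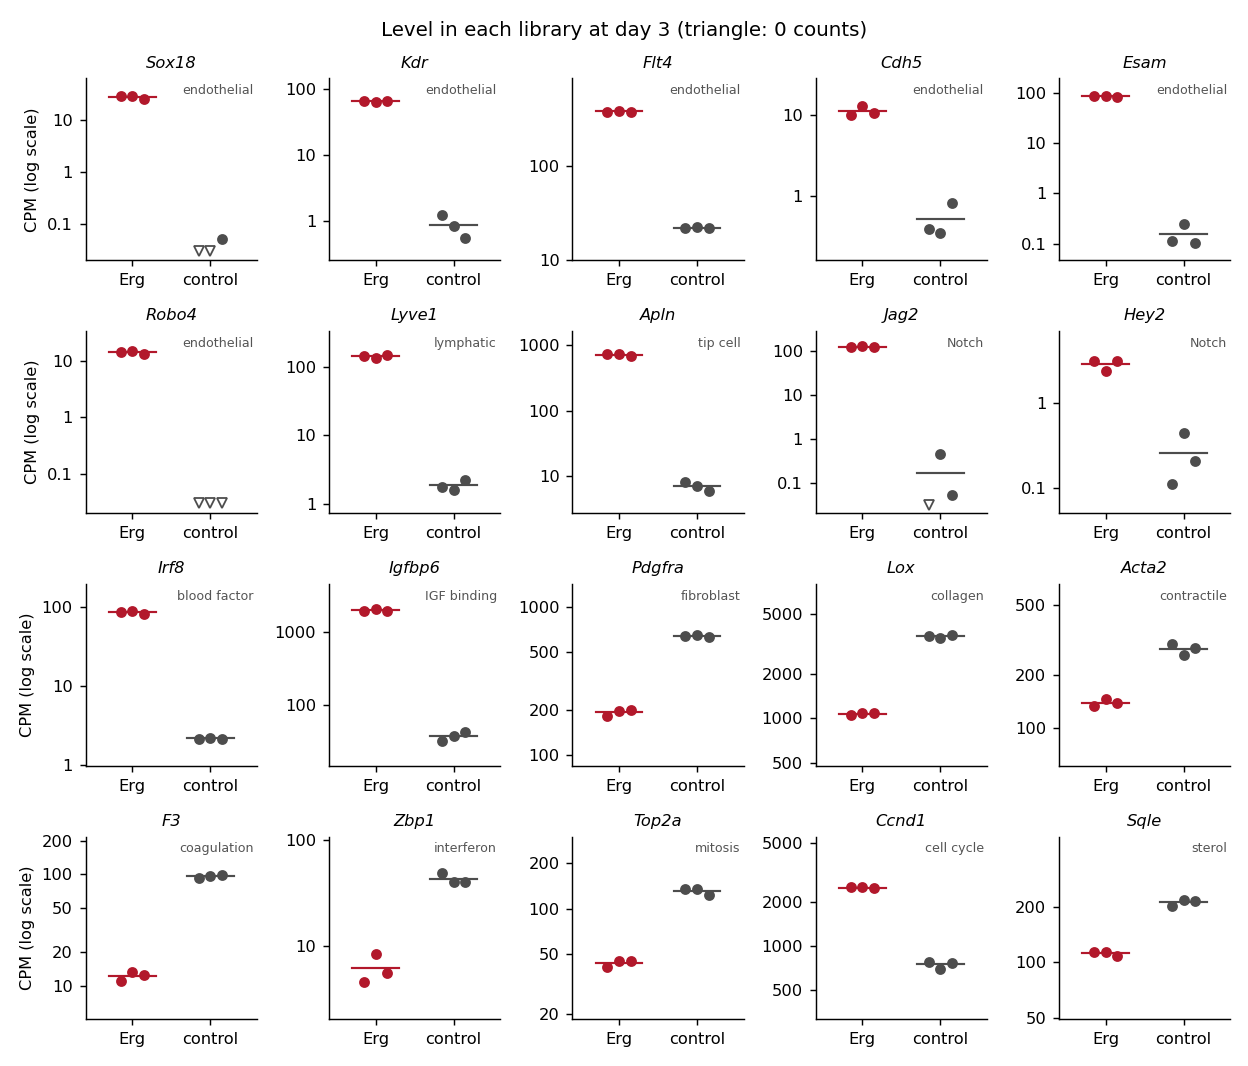
Points are the CPM of single libraries on log axes, 3 Erg libraries at the left and 3 control libraries at the right of each panel, with lines at the group means and triangles for libraries with 0 counts. Kdr lies at 64.6 to 66.1 CPM in Erg against 0.563 to 1.23 in control, and Pdgfra at 185 to 201 in Erg against 631 to 651 in control. The 3 libraries of a group lie close together beside the distance between the groups in most panels, with a wider spread where counts are low.

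Several Notch ligands and most of the targets listed rose. Jag2, a Notch ligand, stood at 126, 128 and 125 CPM in Erg libraries against 0, 0.446 and 0.0512 CPM in control libraries (log2 change 9.47, SE 0.39). The ligands Dll4, of arterial and tip cells, Dlk2 and Dll1 rose by 3.43, 2.70 and 1.84. Notch3, the receptor of mural cells, stood at 138, 127 and 137 CPM in Erg libraries against 31.1, 31.1 and 35.6 CPM in control libraries, and Notch4, the receptor of endothelium, fell, to 65.0 ± 6.63 CPM in Erg against 135 ± 5.13 CPM in control (SD, n = 3). Notch2 fell by 0.91, Maml3, a co-activator, by 1.39 and Rbpj, the DNA-binding partner of Notch, by 0.72. The list of ligands, receptors and modifiers came to 10 higher, 7 lower and 5 not called of 22 tested (median log2 change 0.03).

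The Hey and Hes repressors, direct targets of Notch, came to 8 higher, 0 lower and 2 not called of 10 tested (median log2 change 2.34, or 1.74 taking members at 0 counts at their lower bound). Hey2 stood at 3.05, 2.34 and 3.12 CPM in Erg libraries against 0.112, 0.446 and 0.205 CPM in control libraries (log2 change 3.43, SE 0.32), and Hey1 and Heyl rose by 2.78 and 1.89. Nrarp, a feedback inhibitor of Notch, had 3 counts in control libraries and a ratio of 37.5 (95% counting interval 12.6 to 184). Hes5 had 11 counts in Erg libraries against 0 in control libraries, at least 2.996-fold higher (adjusted p = 0.043), and was no longer called when any library but Erg replicate 2 was left out (0.0726 to 0.0925). Hes1 and Hes6 were the members not called.

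Genes that mark arteries came to 3 higher, 8 lower and 6 not called of 17 tested (median log2 change −0.36) and venous and lymphatic genes to 13 higher, 4 lower and 2 not called of 19 tested (median log2 change 1.01). The counts of both lists depend on which genes were placed in them. Dll4, of arterial and tip cells, was given above with the Notch ligands, and Lyve1, Selp and Flt4 also stand under other lists. Sema3f, a secreted semaphorin, stood at 140.4, 139.8 and 134 CPM in Erg libraries against 11.8, 11.3 and 13.5 CPM in control libraries, and Acvrl1, a BMP receptor of endothelium, rose by 1.32. Gja5, the connexin of arteries, had 2 counts in control and a ratio of 24.9 (95% counting interval 6.62 to 210.3). Gja4, another connexin of arteries, fell by 0.97, Fbln5, of elastic fibres, by 1.08 and Cxcl12, a chemokine, by 0.55, while Efnb2, the arterial ephrin, was not called at 18.5 ± 2.23 CPM in Erg against 18.1 ± 3.13 CPM in control. Among venous and lymphatic genes, Lyve1, Flt4, Reln and Selp rose as given, Fgl2 rose by 2.60, and Car4, a carbonic anhydrase of capillaries, had a ratio of 127 (95% counting interval 34.8 to 1049.9). Thy1 fell by 1.17.

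Ephrins and Eph receptors came to 4 higher, 9 lower and 4 not called of 17 tested (median log2 change −0.40). Ephb2, a receptor of cell sorting, was the first of the 20 largest falls, at 5.25, 5.61 and 5.22 CPM in Erg libraries against 37.8, 42.3 and 47.5 CPM in control libraries (log2 change −2.99, SE 0.14). Epha1 fell by 2.57, whereas the ligand Efna3 rose by 3.32 and Ephb1 had a ratio of 210.5 (95% counting interval 37.5 to 8344) over 1 control count. Semaphorins, plexins and the Robo, Slit and netrin genes came to 21 higher, 11 lower and 11 not called of 43 tested (median log2 change 0.88). Beside Robo4, the ligand Slit1 rose by 3.24, Sema7a by 2.99 and Sema6b by 2.92. Sema3e and Sema3d fell by 1.81 and 1.80.

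G protein-coupled receptors came to 19 higher, 11 lower and 25 not called of 55 tested (median log2 change 0.09). Beside Vipr1, its relative Vipr2 stood at 33.9, 28.4 and 30.4 CPM in Erg libraries against 0.223, 0.0991 and 0.154 CPM in control libraries (log2 change 7.58), so both receptors of vasoactive intestinal peptide rose. Adgrg1, an adhesion receptor, reached 45.2 ± 1.84 CPM in Erg against 0.510 ± 0.295 CPM in control (SD, n = 3).

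Coagulation and fibrinolysis genes came to 5 higher, 6 lower and 12 not called of 23 tested (median log2 change 0.16), with 3 higher without control replicate 2. The number higher was 10 without replicate 1 of Sox17 and of SEG at day 7. It was 11 of 21 tested with the fit restricted to the groups compared. F3, tissue factor, which starts coagulation, stood at 11.1, 13.1 and 12.4 CPM in Erg libraries against 92.8, 95.3 and 97.99 CPM in control libraries (log2 change −2.96, SE 0.17). Megakaryocyte and platelet genes came to 4 higher, 3 lower and 6 not called of 13 tested (median log2 change 0.98), with 1 lower without Erg replicate 2 or 3 or control replicate 2, and transcription factors of blood to 10 higher, 1 lower and 9 not called of 20 tested (median log2 change 1.28). Irf8, a factor of monocytes and dendritic cells, stood at 86.6, 89.3 and 82.1 CPM in Erg libraries against 2.18, 2.23 and 2.15 CPM in control libraries (log2 change 5.29, SE 0.18). Cbfa2t3, a co-repressor of blood progenitors, rose by 5.80 and Ikzf1, of lymphoid cells, by 4.42, while Meis1 fell by 0.81.

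Macrophage genes came to 11 higher, 2 lower and 9 not called of 22 tested (median log2 change 0.70), and their summed level was 252.8 to 270.5 CPM in Erg libraries against 168.8 to 169 CPM in control libraries. Of the defining markers, Ptprc stood at 1.17 ± 0.0855 CPM in Erg against 0.727 ± 0.0801 CPM in control, Csf1r at 8.94 ± 0.481 CPM in Erg against 7.15 ± 0.635 CPM in control and Adgre1 at 3.56 ± 1.11 CPM in Erg against 2.33 ± 0.364 CPM in control (SD, n = 3), and none of the 3 was called. With the fit restricted to the groups compared, all 3 were called higher, by log2 changes of 0.70, 0.36 and 0.62. Trem2, a receptor of tissue macrophages, stood at 15.1, 14.1 and 14.4 CPM in Erg libraries against 1.79, 1.29 and 1.48 CPM in control libraries, Cd68 rose by 1.25 and Cd14 fell by 1.29. Lymphocyte genes came to 2 higher, 0 lower and 2 not called of 4 tested (median log2 change 1.53) at sums of 5.25 to 6.12 CPM in Erg libraries and 2.08 to 2.56 CPM in control libraries, with 1 higher without Erg replicate 3. The part of these cells in the results was not tested.

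Lists of the other cell types that a heart preparation can hold were counted in the same way. Cardiomyocyte genes came to 1 higher, 2 lower and 5 not called of 8 tested (median log2 change 0.17, or 0.01 taking members at 0 counts at their lower bound), with sums of 22.4 to 23.3 CPM in Erg libraries against 71.1 to 72.6 CPM in control libraries, the largest part of it Tnnt2, troponin T, at 11.5 ± 0.439 CPM in Erg against 54.5 ± 2.02 CPM in control (SD, n = 3). Schwann cell and neuron genes came to 3 higher, 3 lower and 6 not called of 12 tested (median log2 change −0.85), with sums of 76.6 to 80.8 CPM in Erg libraries against 187 to 203 CPM in control libraries. Epithelial and mesothelial genes came to 3 higher, 2 lower and 4 not called of 9 tested (median log2 change −0.32), with sums of 9.46 to 13.7 CPM in Erg libraries against 14.1 to 17.7 CPM in control libraries. Epcam, of epithelium, had 31 counts in Erg libraries against 0 in control libraries, at least 9.05-fold higher. Msln, the other marker chosen for these types, fell to 1.23 ± 0.230 CPM in Erg against 3.37 ± 0.232 CPM in control (SD, n = 3). Pericyte and mural cell genes came to 4 higher, 5 lower and 3 not called of 12 tested (median log2 change 0.18). Of the markers chosen for pericytes, Rgs5 was not called and Kcnj8 had too few counts to be tested. Abcc9, the remaining one, rose to 8.23 ± 0.0975 CPM in Erg against 0.187 ± 0.126 CPM in control (SD, n = 3, log2 change 5.40). The part of these cells in the results was not tested either.

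Fibroblast and proteoglycan genes came to 9 higher, 26 lower and 10 not called of 45 tested (median log2 change −0.62). The number higher was 14 with the fit restricted to the groups compared. Pdgfra, the receptor that marks heart fibroblasts, stood at 185, 198 and 201 CPM in Erg libraries against 633, 651 and 631 CPM in control libraries (log2 change −1.71, SE 0.25, adjusted p = 1.05e-05). The 9 members that rose in the main fit included some of high level. Dcn, the proteoglycan decorin, stood at 1078 ± 49.0 CPM in Erg against 684 ± 52.9 CPM in control, and Tnxb, tenascin X, at 719 ± 33.1 CPM in Erg against 41.4 ± 5.54 CPM in control (SD, n = 3). Scara5, a ferritin receptor of fibroblasts, rose by 5.53. Ligands and receptors of PDGF came to 1 higher, 6 lower and 0 not called of 7 tested (median log2 change −0.72), with Pdgfb the member that rose, by 3.70, and Pdgfrb at 717 ± 5.53 CPM in Erg against 1151 ± 34.7 CPM in control.

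Fibrillar collagens and their modifying enzymes came to 11 higher, 13 lower and 8 not called of 32 tested (median log2 change −0.33). Lox, which cross-links collagen, stood at 1054, 1093 and 1089 CPM in Erg libraries against 3601, 3488 and 3627 CPM in control libraries (log2 change −1.73, SE 0.27). Col1a1, the main chain of type I collagen, fell to 7528 ± 288 CPM in Erg against 12762 ± 588 CPM in control (SD, n = 3), and Col11a1 fell by 2.24. Col6a3, of microfibrils around cells, stood at 2777, 2764 and 2810.1 CPM in Erg libraries against 263, 324 and 305 CPM in control libraries, and Col5a3 rose by 2.198. Basement membrane genes came to 10 higher, 6 lower and 11 not called of 27 tested (median log2 change 0.22), where the laminin chains Lamc3 and Lama5 rose by 6.53 and 2.21, Col8a2 rose by 6.52, and Col8a1 fell by 1.47. The number of them lower was 10 with the fit restricted to the groups compared.

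Integrin subunits came to 9 higher, 5 lower and 9 not called of 23 tested (median log2 change 0.19). Itgb4, the laminin receptor of hemidesmosomes, stood at 329, 339 and 323 CPM in Erg libraries against 2.79, 2.87 and 2.66 CPM in control libraries (log2 change 6.89, SE 0.13, adjusted p = 2.64e-18), and Itgal, a leukocyte integrin, rose by 5.93. Matrix metalloproteinases and their inhibitors came to 7 higher, 9 lower and 5 not called of 21 tested (median log2 change −0.11), with 5 lower without Erg replicate 3. The inhibitor Timp3, which also blocks VEGF at its receptor, stood at 5134, 5086 and 4964 CPM in Erg libraries against 297, 333 and 318 CPM in control libraries (adjusted p = 3.62e-12), and Timp4 rose by 6.23. The protease Mmp3 stood at 423, 447 and 466 CPM in Erg libraries against 1832, 1906 and 1997 CPM in control libraries (log2 change −2.10), and Mmp10 fell by 3.92. ADAMTS and ADAM proteases came to 7 higher, 15 lower and 5 not called of 27 tested (median log2 change −0.36).

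Contractile genes of smooth muscle, which activated fibroblasts also express, came to 3 higher, 9 lower and 10 not called of 22 tested (median log2 change −0.61). Acta2, smooth muscle actin, fell to 139.6 ± 6.02 CPM in Erg against 282 ± 20.2 CPM in control (SD, n = 3), Cnn1, calponin, fell by 3.02 and Myocd, the co-activator of such genes, by 1.89. Myh11, the smooth muscle myosin, rose by 3.63, Synpo2 by 1.26 and Tagln, transgelin, by 0.84, so the list did not move as one. Targets of YAP and SRF came to 3 higher, 10 lower and 7 not called of 20 tested (median log2 change −0.51), with Ccn2, a matricellular growth factor, down by 1.01, Fhl2 by 1.58 and Crim1 up by 1.69. Cartilage and bone genes came to 5 higher, 10 lower and 8 not called of 23 tested (median log2 change −0.50), with 3 higher without control replicate 3, adipocyte and lipid droplet genes to 7 higher, 4 lower and 5 not called of 16 tested (median log2 change 0.47), heart mesenchyme transcription factors to 9 higher, 6 lower and 10 not called of 25 tested (median log2 change −0.06) and Hox genes to 3 higher, 1 lower and 7 not called of 11 tested (median log2 change −0.20). In the heart list Tbx3 and Tbx2, repressors of the conduction system and valves, rose by 5.02 and 2.55. The number lower in that list was 11 with the fit restricted to the groups compared.

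In the Wnt pathway, where Wnt9b was among the largest rises, the list came to 14 higher, 8 lower and 24 not called of 46 tested (median log2 change 0.19). Nkd1, a feedback inhibitor and common Wnt target, rose to 21.9 ± 0.339 CPM in Erg against 4.31 ± 0.413 CPM in control, and Sfrp1, a secreted inhibitor, fell to 206 ± 6.76 CPM in Erg against 969 ± 59.1 CPM in control (SD, n = 3). BMP pathway and Id genes came to 11 higher, 7 lower and 15 not called of 33 tested (median log2 change 0.21), with the ligands Bmp2 and Bmp4 up by 2.76 and 2.48. Gdf15, a stress-induced ligand of this family, rose to 362 ± 8.78 CPM in Erg against 24.7 ± 2.54 CPM in control. TGF-beta pathway genes came to 4 higher, 10 lower and 10 not called of 24 tested (median log2 change −0.23), with Ltbp1, which stores the latent ligand, down by 2.03 and the ligands Tgfb1 and Tgfb2 up by 1.04 and 1.49. The number of them higher was 8 with the fit restricted to the groups compared.

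FGF ligands and receptors came to 6 higher, 6 lower and 6 not called of 18 tested (median log2 change −0.36). The receptors Fgfr3 and Fgfr2 moved apart, Fgfr3 to 45.2 ± 1.87 CPM in Erg against 1.41 ± 0.393 CPM in control (SD, n = 3) and Fgfr2 down by 2.11. Feedback genes of the ERK pathway came to 7 higher, 8 lower and 11 not called of 26 tested (median log2 change −0.14), with the phosphatase Dusp6 up by 2.31 and the inhibitor Spry4 by 1.79. AP-1 genes came to 6 higher, 3 lower and 5 not called of 14 tested (median log2 change 0.48), with Atf3 up by 1.82 and Fos down by 1.68. IGF genes and their binding proteins came to 7 higher, 3 lower and 7 not called of 17 tested (median log2 change 0.16). Igfbp6, which binds IGF2, stood at 1936, 2072 and 1951 CPM in Erg libraries against 31.2, 37.0 and 41.7 CPM in control libraries (log2 change 5.76, SE 0.37).

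Interferon-stimulated genes fell, with 2 higher, 33 lower and 10 not called of 45 tested (median log2 change −1.04). Zbp1, a sensor of nucleic acids, stood at 4.57, 8.54 and 5.60 CPM in Erg libraries against 48.5, 40.6 and 40.5 CPM in control libraries (log2 change −2.79, SE 0.35), and Ifi44 at 3.502, 13.6 and 3.66 CPM in Erg libraries against 50.6, 41.4 and 37.0 CPM in control libraries (log2 change −2.65, SE 0.43). Erg replicate 2 was the highest Erg library in both. Both genes are among the largest falls described below, which were taken only from genes without overlap. That this library lay below every control library follows from that rule. Oas2, an antiviral enzyme, fell to 1.45 ± 0.576 CPM in Erg against 10.002 ± 1.86 CPM in control (SD, n = 3). The members that rose were H2-D1, an antigen-presenting molecule, by 0.68, and Irf1, by 0.63.

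Chemokines, cytokines and acute phase genes moved both ways, with 15 higher, 11 lower and 10 not called of 36 tested (median log2 change 0.04). Lcn2, the iron-binding lipocalin, stood at 104, 97.4 and 100.7 CPM in Erg libraries against 5.52, 5.40 and 4.401 CPM in control libraries (log2 change 4.30, SE 0.31), Ccl2, which draws monocytes, rose by 2.45 and Ptgs2, of prostaglandin synthesis, by 2.51. Il6 fell by 2.21, and Csf1, the growth factor of macrophages, fell to 630.4 ± 26.3 CPM in Erg against 1833 ± 94.3 CPM in control (SD, n = 3). Complement genes came to 10 higher, 3 lower and 8 not called of 21 tested (median log2 change 0.54), with Colec12, a scavenger collectin, up to 3355 ± 86.2 CPM in Erg against 293 ± 12.01 CPM in control and Cd55, which protects cells from complement, up by 2.08.

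Most genes of cell division fell. The mitosis list came to 0 higher, 40 lower and 2 not called of 42 tested (median log2 change −1.57), and its summed level was 676 to 714 CPM in Erg libraries against 1878 to 1927 CPM in control libraries. Top2a, which untangles DNA for chromosome separation, stood at 41.1, 45.3 and 45.03 CPM in Erg libraries against 136, 136 and 124 CPM in control libraries (log2 change −1.59, SE 0.17, adjusted p = 2.64e-07). Ccna2, cyclin A2, fell by 1.82 and Anln, of the cleavage furrow, by 1.92. DNA replication genes came to 3 higher, 33 lower and 7 not called of 43 tested (median log2 change −0.68), with 1 higher without Erg replicate 2 or control replicate 1. Tk1, thymidine kinase, fell by 1.62, while Pcna, the sliding clamp, rose by 0.34.

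CDK inhibitors and D cyclins came to 6 higher, 8 lower and 8 not called of 22 tested (median log2 change −0.27). The number lower was 13 with the fit restricted to the groups compared. Ccnd1, cyclin D1, stood at 2506, 2499 and 2463 CPM in Erg libraries against 778, 699 and 767 CPM in control libraries (log2 change 1.73, SE 0.08), so it moved opposite to the mitosis genes. Cdkn1a, the inhibitor p21, rose to 624 ± 14.3 CPM in Erg against 315 ± 3.35 CPM in control (SD, n = 3). Targets of p53, of which Cdkn1a is one, came to 8 higher, 4 lower and 12 not called of 24 tested (median log2 change 0.05).

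Most of the sterol and fatty acid synthesis genes tested were called lower. Sterol synthesis came to 0 higher, 19 lower and 6 not called of 25 tested (median log2 change −0.63), with Acat2, which makes acetoacetyl-CoA, at 65.9 ± 0.256 CPM in Erg against 181 ± 6.05 CPM in control and Sqle, squalene epoxidase, at 112 ± 2.92 CPM in Erg against 212 ± 8.43 CPM in control (SD, n = 3). Fatty acid synthesis came to 4 higher, 11 lower and 2 not called of 17 tested (median log2 change −0.48), with the desaturase Scd1 at 412 ± 8.30 CPM in Erg against 912 ± 31.6 CPM in control. Glycolysis and glucose uptake came to 6 higher, 12 lower and 7 not called of 25 tested (median log2 change −0.36). Slc2a3, a glucose transporter, stood at 188, 195 and 192 CPM in Erg libraries against 8.42, 9.41 and 8.55 CPM in control libraries (log2 change 4.45), and Gapdh rose by 1.01, while Pfkfb3 fell by 1.76. Respiratory chain subunits mostly did not pass in the fit over all 24 libraries, with 2 higher, 5 lower and 24 not called of 31 tested (median log2 change 0.03). Without Erg replicate 1, 2 or 3 or control replicate 3, 2 or 3 were lower. Without replicate 1 of Sox17 and of SEG at day 7 the list came to 7 higher and 9 lower. With the fit restricted to the groups compared, 12 of 30 tested were higher.

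Stress genes were mixed. Hypoxia-induced genes came to 9 higher, 3 lower and 7 not called of 19 tested (median log2 change 0.24), with Ndrg1 at 177, 181 and 178 CPM in Erg libraries against 7.53, 8.72 and 7.32 CPM in control libraries (log2 change 4.51). The number of them lower was 6 without replicate 1 of Sox17 and of SEG at day 7. Unfolded protein and amino acid stress genes came to 5 higher, 12 lower and 7 not called of 24 tested (median log2 change −0.23), and in the serine synthesis pathway Phgdh rose by 1.48 while Psat1, the next enzyme, fell by 2.09. Heat shock and oxidative stress genes came to 12 higher, 1 lower and 9 not called of 22 tested (median log2 change 0.43). Gclc, which makes glutathione, rose by 2.40, and Hmox1, haem oxygenase, rose to 877 ± 21.6 CPM in Erg against 376 ± 17.8 CPM in control (SD, n = 3).

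**Figure D4:**
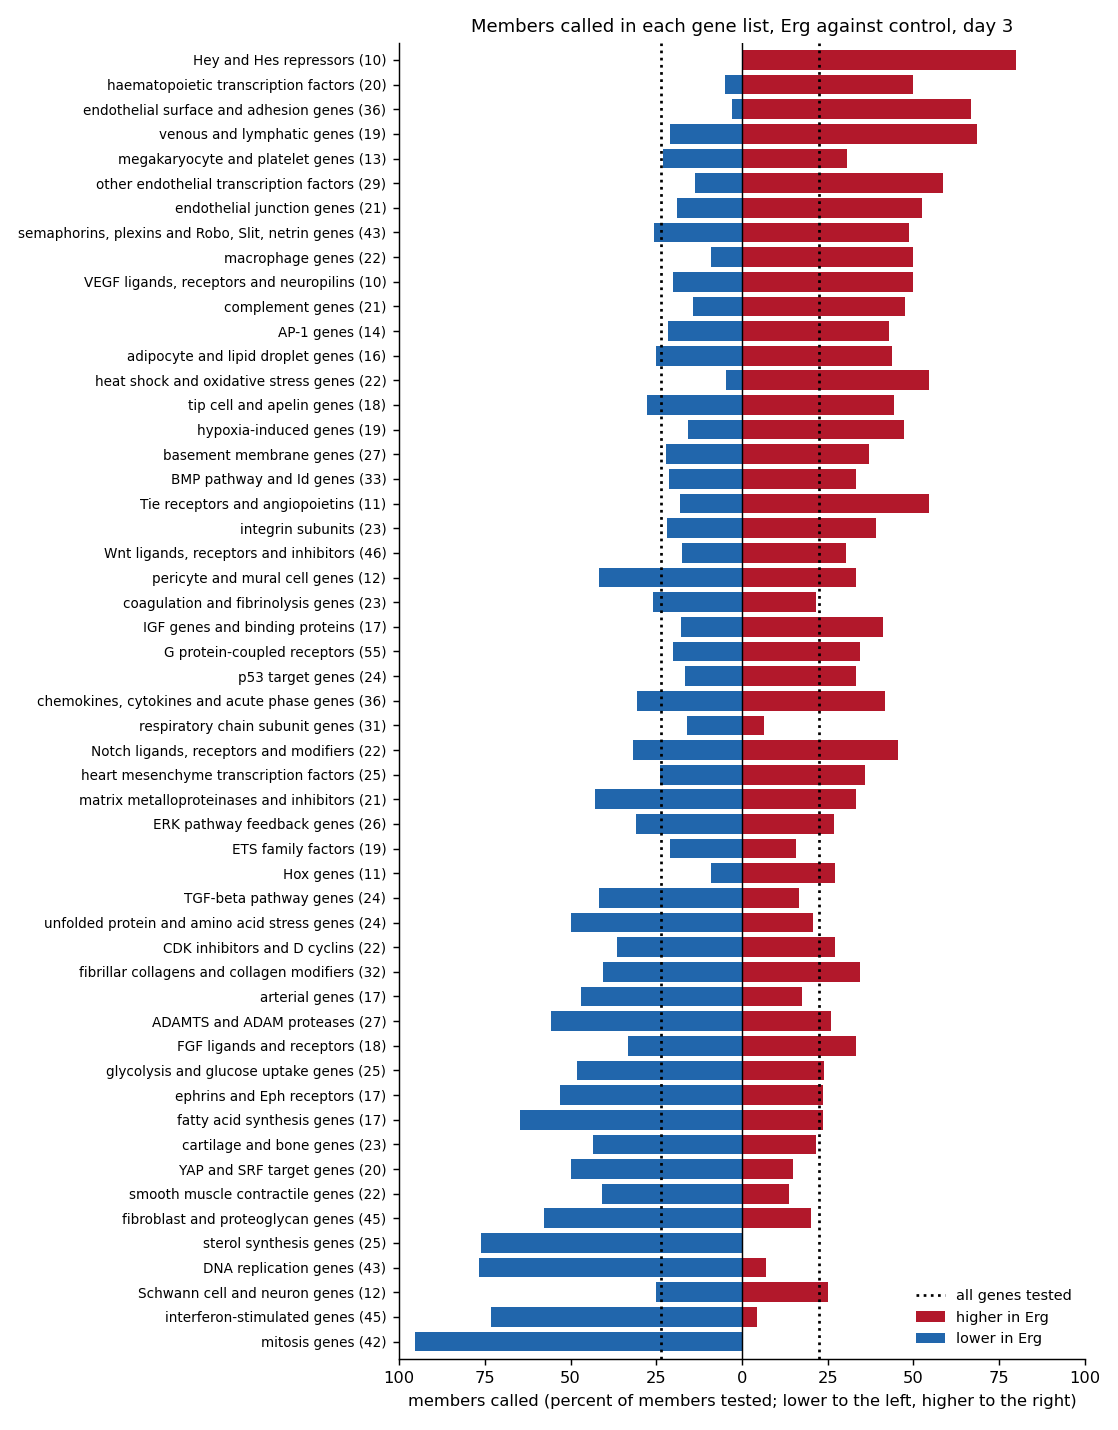
Bars give the percent of each list's tested members called lower in Erg, to the left, and higher in Erg, to the right, for the lists described here with at least 10 tested members, sorted by the median log2 change and with the number tested in brackets. Dotted lines mark the shares over all genes tested, 23.5% lower and 22.6% higher. The mitosis list has 0 members higher and 40 lower, and the endothelial surface list 24 higher and 1 lower.

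The 20 largest falls were taken from called genes whose mean in control was 10 CPM or more and whose libraries did not overlap. They were smaller than the 20 largest rises, between −2.99 and −2.47 on the log2 scale. Larger falls, such as those of Mmp10 and Cnn1 given above, were in genes outside this rule. Beside Ephb2, F3, Zbp1 and Ifi44, they held Mfsd2a, a lipid transporter of brain endothelium, at 3.97 ± 0.114 CPM in Erg against 26.4 ± 2.41 CPM in control, and Pappa, a protease of IGF-binding proteins, at 2.53 ± 0.759 CPM in Erg against 17.4 ± 2.49 CPM in control (SD, n = 3). Cemip, which breaks down hyaluronan, stood at 66.2, 67.6 and 70.6 CPM in Erg libraries against 424, 389 and 419.5 CPM in control libraries. Ptx3, a pentraxin of innate immunity, fell by 2.59, Pdlim3, of muscle Z-discs, by 2.60, Crispld2 by 2.59, and Lbh and Dact1, known from Wnt signalling, by 2.51 and 2.47.

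Set against Sox17 at day 3, the other single factor of the series, Erg cells were higher in 3974 genes and lower in 4208, together 55.3% of genes tested. This comparison and Erg against control share the Erg libraries. Kdr averaged 65.5 ± 0.809 CPM in Erg and 377 ± 37.0 CPM in Sox17 (log2 change −2.52, adjusted p = 1.92e-07), and Cdh5 11.1 ± 1.57 CPM in Erg and 171 ± 11.2 CPM in Sox17 (log2 change −3.95), so both were lower with Erg. Flt4 averaged 377 ± 6.17 CPM in Erg and 19.99 ± 0.455 CPM in Sox17 (log2 change 4.24), and Lyve1 142 ± 6.95 CPM in Erg and 0.639 ± 0.303 CPM in Sox17 (log2 change 7.74). Flt1, Apln, Jag2 and Esam were also higher with Erg, by 5.43, 6.38, 7.48 and 8.44 on the log2 scale. Emcn and Pecam1 did not pass, at 4.64 ± 0.854 and 2.57 ± 0.0876 CPM in Erg and 4.51 ± 0.304 and 2.08 ± 0.338 CPM in Sox17 (adjusted p = 0.862 and 0.169).

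Against Sox17, venous and lymphatic genes were 13 higher and 3 lower in Erg, surface genes 20 higher and 10 lower, and arterial genes 5 higher and 11 lower. Ephrins and Eph receptors were 2 higher and 13 lower, with 1 higher without replicate 2 or 3 of either group. Fibroblast genes were 25 higher and 11 lower, with Dcn at 1078 ± 49.0 CPM in Erg and 108 ± 6.45 CPM in Sox17. Mitosis genes were 1 higher and 40 lower and interferon-stimulated genes 14 higher and 9 lower, or 12 higher and 13 lower without Erg replicate 2. Acta2 averaged 139.6 ± 6.02 CPM in Erg and 1419.9 ± 278 CPM in Sox17, Mfsd2a 3.97 ± 0.114 CPM in Erg and 199.6 ± 3.41 CPM in Sox17, and Ccnd1 2489 ± 23.3 CPM in Erg and 191 ± 5.98 CPM in Sox17.

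The effect of Erg at day 3 was also set against its effect at day 7 by the interaction of factor and day, which passed for 2916 genes, or 19.7%. The effect was more positive at day 3 for 1533 of them and more negative for 1383. With replicate 1 of Sox17 and of SEG at day 7, which correlated with the other libraries of their groups at 0.939 to 0.98 (Pearson, log2 CPM), against 0.987 to 0.993 for all other pairs of libraries within a group, left out of the shared fit, 3306 were more positive and 3287 more negative. Of the receptors, Flt4 stood at day 7 at 190.2 ± 30.8 CPM in Erg against 39.9 ± 3.11 CPM in control (SD, n = 3), for an effect of 2.25 on the log2 scale against 4.09 at day 3 (difference 1.84, adjusted p = 0.000595). Flt1 and Apln likewise had larger effects at day 3, by 2.43 and 1.46. For Kdr, Cdh5, Esam, Jag2 and Robo4 the difference did not pass.

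The shares of all genes tested that were called at day 7 are not given here. The day 7 counts of lists below therefore stand without a background to compare them with. The cell division lists had medians of opposite sign at the 2 days. Mitosis genes, 0 higher, 40 lower and 2 not called of 42 tested at day 3, came at day 7 to 24 higher and 0 lower (median 0.39), and in the interaction to 0 higher and 41 lower. DNA replication genes came at day 7 to 31 higher and 0 lower (median 0.64) and in the interaction to 0 higher and 39 lower. For Top2a the means at day 7 were 47.7 ± 4.99 CPM in Erg against 36.8 ± 6.20 CPM in control (SD, n = 3), a log2 change of 0.37 that did not pass, against −1.59 at day 3 (difference −1.96). Ccna2 had an effect of 0.66 at day 7 (difference −2.48).

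Sterol genes came at day 7 to 0 higher and 24 lower (median −1.74) and in the interaction to 21 higher and 0 lower, so they fell more at day 7 than at day 3. Macrophage genes came at day 7 to 21 higher and 1 lower (median 2.36) and in the interaction to 0 higher and 18 lower, with Csf1r at 33.9 ± 1.38 CPM in Erg against 7.46 ± 0.685 CPM in control at day 7. Fibroblast genes came at day 7 to 8 higher and 31 lower (median −1.08) and in the interaction to 19 higher and 1 lower, with 2 more negative without Erg replicate 3 at day 7. Complement genes came at day 7 to 8 higher and 11 lower (median −0.35), and interferon-stimulated genes to 1 higher and 23 lower (median −0.69). Smooth muscle contractile genes came at day 7 to 6 higher and 3 lower (median 0.01), with Acta2 at 233 ± 27.6 CPM in Erg against 64.8 ± 6.14 CPM in control (difference −2.87).

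In all, 359 genes were called in opposite directions at the 2 days with a called difference, 210 of them lower at day 3 and higher at day 7 and 149 the reverse. Dcn, higher at day 3, stood at day 7 at 610.4 ± 6.65 CPM in Erg against 1266 ± 105 CPM in control (difference 1.71), and H2-D1 at 1401 ± 49.5 CPM in Erg against 3074 ± 130.4 CPM in control (difference 1.82). Notch4, lower at day 3, stood at day 7 at 69.8 ± 2.67 CPM in Erg against 57.3 ± 6.06 CPM in control (difference −1.34).

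**Figure D5:**
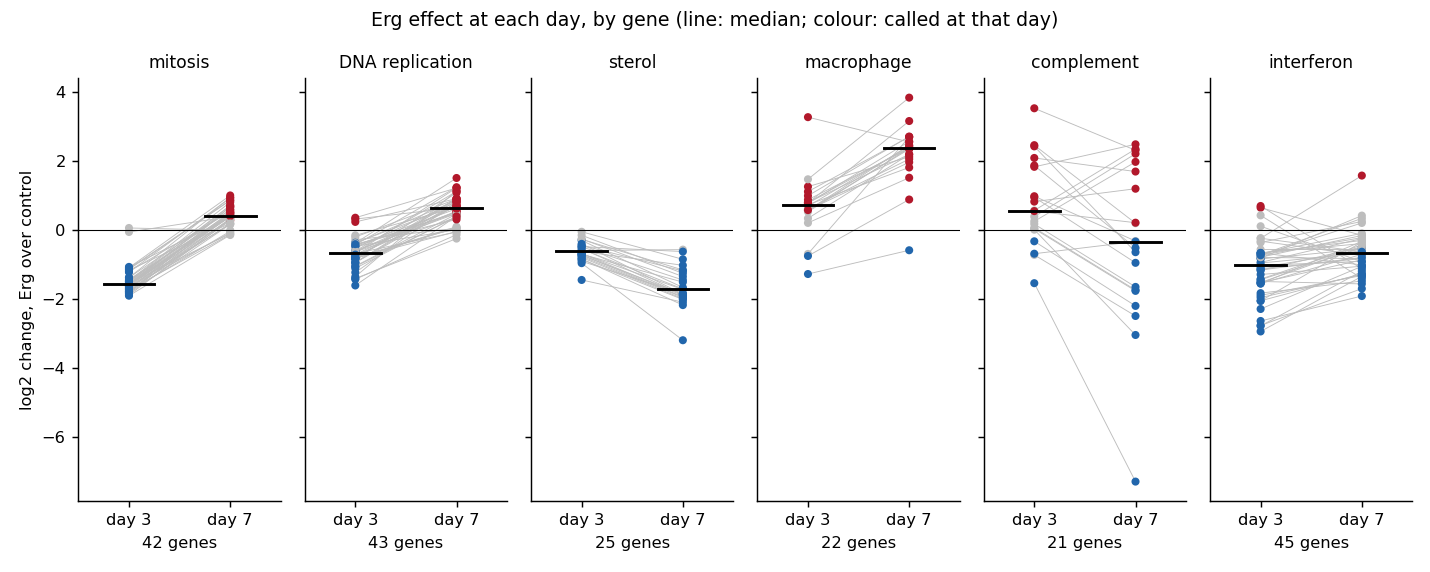
Points are the members of 6 lists at their fitted log2 change, Erg over control, at day 3 and at day 7, coloured by the call on that day, with a black line at the list's median. The median of the mitosis genes lies at −1.57 at day 3 and 0.39 at day 7, and that of the sterol genes at −0.63 and −1.74.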

How the data were processed

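Poly(A) RNA libraries of 6 mouse heart cell samples, 3 Erg and 3 control at day 3, were analysed within a deposited table of whole-number counts per gene in 24 libraries. Salmon, DESeq2 and build mm10 are named without versions or roles, per the submitters' processing notes. Neither strandedness nor annotation version nor rounding is stated for the counts, so genes that share reads with a near-identical copy, an overlapping or an antisense gene may be split or merged. Names, types and mm10 positions were taken from GENCODE vM21, and 305 of 35727 genes had no name there.

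Genes were kept by filterByExpr with a minimum count of 10. With edgeR 4.0.16, 8 group means were fitted over all 24 libraries by quasi-likelihood (limma 3.58.1, R 4.3.3) after TMM scaling, with Benjamini-Hochberg adjustment over 14804 genes at 0.05. It was used for Erg against control, Erg against Sox17 and the interaction of Erg with day. Only Erg against control was also run on simulated data, with an outcome not reported here. Fitted log2 changes use a prior count of 0.125. Standard errors are the log2 change divided by the root of the F statistic. Where a group had 0 counts, a lower bound was taken against 3 counts over its 3 libraries, and with 1 to 3 counts a ratio with a 95% exact (Clopper-Pearson) counting interval. Depths of 18794422 counts or more place this floor at 0.0412 CPM in Erg and 0.0520 CPM in control.

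The members and the 58 gene lists, of which 1250 genes were tested, were chosen with earlier results of these data known, and 1 of the lists and some genes are not reported here. Named genes are Erg and Sox17, the 20 largest called rises and falls with at least 10 CPM and no overlap, and from each list the called members with the largest change (at least 1 CPM), with the highest level or against the majority, with any member of short lists. Other names are said to be chosen after their values were seen. Same-numbered libraries deviated with correlations of 0.0236, 0.0228 and −0.0058. The labels state no pairing of replicate numbers and the main fit used none, so whether the libraries are paired is not known. Replicates differed by more than counting noise (chi-square per gene 2.88 to 7.24) and were counted separately. Promoters are RefSeq windows of GRCm38.p6. Alternatives were other scaling, no filter, DESeq2 1.42.0, a replicate block, a test beyond 1.5-fold, fewer libraries in the fit and each library left out.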

Additional observations from a re-analysis of the deposited data

Results flagged for a closer look

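The effect of Erg differed between day 3 and day 7 by the interaction test for 2916 genes. Of these, 359 were called in opposite directions at the 2 days, 210 lower at day 3 and higher at day 7 and 149 higher at day 3 and lower at day 7. Among named genes, the effect at day 3 minus that at day 7 on the log2 scale was −2.87 for Acta2, −1.43 for Ccn2, −2.48 for Ccna2 and −1.34 for Notch4, which were lower at day 3 and higher at day 7. It was 1.71 for Dcn and 1.82 for H2-D1, which were higher at day 3 and lower at day 7.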

How the results depend on the processing

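Of the 6827 calls of Erg against control, none changed sign under any alternative that gave a value, and 5904 to 6006 were still called when any 1 of the 6 libraries was left out. Tested for changes beyond 1.5-fold, 1682 genes were higher and 1408 lower, and list members came to 247 lower. Under that test Erg against Sox17 gave 2290 higher and 2149 lower, and the change between days 398 higher and 416 lower. Without replicate 1 of Sox17 and of SEG at day 7, the common dispersion of the fit was 0.00481, against 0.0288 with all 24 libraries. The change between days then gave 3306 higher and 3287 lower, and Erg against control 4705 higher and 4773 lower. With the groups compared alone in the fit, the change between days gave 3328 higher and 3114 lower. DESeq2 called 3629 higher and 3398 lower. With a replicate block 3335 were higher and 3482 lower, Tek was no longer called (adjusted p = 0.0521) and Vwf was called (0.0255). Each same-numbered library correlated best with its own number in 2 of 3 cases. Leaving out 1 library at a time, the log2 change of genes that were not called ranged from −0.065 to 0.184 for Efnb2, from −0.069 to 0.18 for Emcn against Sox17, from 0.00 to 4.45 for Cldn5, and from −2.41 to 1.05 for Nppa. Of the 114 list counts of Erg against control, 11 moved by over 1.5 times without the 2 day 7 libraries, 16 with the groups compared alone and 62 beyond 1.5-fold. Of named genes, 27 results lost their call under the test beyond 1.5-fold. At these depths genes under about 0.05 CPM in a group rest on 3 counts or fewer.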
